A study of Mus musculus with 10 samples.

Results

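Mucin-type glycosylation enzymes are the Golgi transferases that build O-glycans on mucins, together with the carriers that bring their sugar donors into the Golgi. The 51 genes described here were set by a list of symbols that covers initiation (10 genes), core synthesis (6), chain extension (11), capping with N-acetylgalactosamine (3), sialylation (10), fucosylation (4), sulfation (4) and nucleotide sugar transport (3). All 51 matched an ID among the 33632 in the count table, and 49 passed the filter on low counts.

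RNA sequencing was done on mouse colon crypts, the glands of the colon epithelium. The 5 flox libraries came from Sox21fl/fl mice, whose Sox21 alleles are flanked by loxP sites, and the 5 CKO libraries from Lgr5-EGFP-IRES-CreERT2/+;Sox21fl/fl mice, which carry in addition a knock-in at Lgr5, a receptor of crypt stem cells, that makes a green fluorescent protein and a tamoxifen-inducible Cre recombinase. The labels give normal diet and normal liver for both groups, and both carried the floxed alleles. The recombinase is made in Lgr5-positive cells, and the share of crypt cells that lost Sox21 was not measured here. The labels do not give the age of the mice, whether flox mice received tamoxifen, or whether different libraries stand for different animals, and the p-values here cover only the spread among these 10 libraries.

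Mucin-type O-glycans start when a GALNT enzyme puts N-acetylgalactosamine on a serine or threonine. Core enzymes then add galactose or N-acetylglucosamine, further transferases lengthen the chain, and sialic acid, fucose, sulfate or another N-acetylgalactosamine ends it. In the colon most of the carrier protein is MUC2, made by goblet cells, and its glycans hold water in the mucus gel and feed or repel bacteria. Several of the 51 enzymes also act on other glycans: FUT8 works on N-glycans, B3GNT5, B4GALT6, B4GALNT1 and GAL3ST1 on glycolipids, and ST6GAL1 mainly on N-glycans.

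The promoter windows of Gcnt1, B4galnt3 and B3gnt7 are shown because these 3 members had the smallest p in the comparison of CKO with flox. They come from RefSeq (build GRCm38.p6), span 300 bases around an annotated start, and are written 5′ to 3′ on the gene's strand. Capitals mark the core motif of Sox factors, ACAAT or its reverse complement ATTGT. Gcnt1 has 3 annotated starts, so 3 windows are given.
Gcnt1, chr19:17339456-17339755, minus strand: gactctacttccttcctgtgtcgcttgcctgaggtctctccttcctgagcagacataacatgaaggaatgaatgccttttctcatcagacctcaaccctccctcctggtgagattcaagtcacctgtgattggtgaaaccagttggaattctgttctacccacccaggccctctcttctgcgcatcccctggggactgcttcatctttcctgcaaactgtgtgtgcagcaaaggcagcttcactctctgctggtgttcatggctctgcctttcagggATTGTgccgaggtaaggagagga
Gcnt1, chr19:17356618-17356917, minus strand: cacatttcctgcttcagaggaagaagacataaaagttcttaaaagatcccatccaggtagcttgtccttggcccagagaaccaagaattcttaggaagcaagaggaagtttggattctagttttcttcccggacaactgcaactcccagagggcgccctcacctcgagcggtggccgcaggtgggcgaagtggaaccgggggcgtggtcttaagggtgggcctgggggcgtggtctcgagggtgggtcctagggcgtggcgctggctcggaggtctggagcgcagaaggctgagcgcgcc
Gcnt1, chr19:17372795-17373094, minus strand: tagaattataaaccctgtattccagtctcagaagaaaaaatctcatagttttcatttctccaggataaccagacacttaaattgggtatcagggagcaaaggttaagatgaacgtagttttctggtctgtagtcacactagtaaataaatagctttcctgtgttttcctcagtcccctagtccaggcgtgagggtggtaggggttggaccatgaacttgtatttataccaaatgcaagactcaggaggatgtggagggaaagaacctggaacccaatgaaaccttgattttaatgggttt
B4galnt3, chr6:120294848-120295147, minus strand: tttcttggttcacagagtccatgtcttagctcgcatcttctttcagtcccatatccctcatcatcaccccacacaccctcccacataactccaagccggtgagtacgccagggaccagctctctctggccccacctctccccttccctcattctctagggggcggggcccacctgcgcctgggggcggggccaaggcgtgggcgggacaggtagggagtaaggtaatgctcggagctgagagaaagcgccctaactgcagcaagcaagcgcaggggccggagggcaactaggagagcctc
B3gnt7, chr1:86302971-86303270, plus strand: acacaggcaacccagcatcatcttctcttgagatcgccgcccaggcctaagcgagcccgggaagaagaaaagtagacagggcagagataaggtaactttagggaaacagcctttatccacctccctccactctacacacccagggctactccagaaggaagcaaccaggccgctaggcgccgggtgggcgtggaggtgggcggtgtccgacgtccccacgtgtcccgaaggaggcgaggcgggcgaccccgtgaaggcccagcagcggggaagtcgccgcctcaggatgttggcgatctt
The motif occurred 1 time in these 5 windows, in the Gcnt1 window at chr19:17339456-17339755. Windows were found for 38 of the 51 members, and 12 of their 54 windows (22.2%) held the motif, against 31.0% of all 32851 windows in the table. The match is a description of letters in these windows and says nothing of binding.

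Total counts ran from 18926634 to 23642415 per library. The share of counts from mitochondrial genes was 26.5% for flox 1, 29.3% for flox 4 and 4.30% to 11.8% for the other 8 libraries (two-sided exact permutation p of the group difference = 0.167, n = 5 each). Sox21 itself was not lower in CKO, with 4.04 ± 1.80 CPM (counts scaled to a common library size) for flox against 5.34 ± 1.94 CPM for CKO (SD, n = 5 each), so its transcript did not check the labels. Goblet cell markers summed to 29494 to 44476 CPM in flox and to 15857 to 27534 CPM in CKO, with 17 of 18 genes lower, and Muc2 had 14237 ± 3135 CPM in flox against 8591 ± 2060 CPM in CKO. In bulk RNA, fewer cells of a type and less RNA per cell cannot be told apart. Stem cell markers summed to 255 to 523 CPM in flox and 350 to 518 CPM in CKO (7 of 8 tested genes higher). Fibroblast and muscle markers summed to 22.5 to 78.3 and 55.1 to 203 CPM (8 of 8 tested higher). Of the 10 genes on this list 5 had means under 1 CPM, among them the muscle genes Acta2, Myh11 and Des. Acta2 and Myh11 were not tested and had lower means in CKO, while Des was tested and higher. The sums therefore say little about muscle. Colonocyte markers summed to 7937 to 13673 CPM in flox and 4461 to 12660 CPM in CKO (6 of 10 higher), tuft cell markers to 72.2 to 181 and 54.7 to 126 CPM (8 of 8 tested lower), and enteroendocrine markers to 161 to 336 and 234 to 303 CPM (3 of 8 tested higher). Endothelial markers summed to 8.70 to 11.3 and 4.44 to 8.31 CPM, with 6 of 8 genes under 1 CPM, and leukocyte markers to 96.0 to 630 and 213 to 401 CPM. No gene of these lists was at 0 in every library. What part these other cells had in the values of the enzymes was not tested.

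Over the 10 libraries the estimates of the 49 tested members fell on both sides of 0, from -1.25 to 1.46. The median log2 fold change of CKO over flox was 0.02, against 0.0010 over all 14963 tested genes, with 28 members higher and 21 lower, where 50.1% of all genes were higher. By edgeR's quasi-likelihood test 0 members passed an adjusted p of 0.05 (percent called over all genes: 0%), and 9 had an unadjusted p under 0.05, where 13.0% of all tested genes did. Of these 5 were higher and 4 lower, against 5.05% and 7.91% of all genes. DESeq2 called 2 members, Gcnt1 and B4galnt3, both higher in CKO, against 1.19% of all genes in either direction and 0.401% on the higher side. In 1 member, Gcnt1, each CKO value exceeded each flox value. The groups did not overlap in 2.18% of all genes, and in 0.922% with CKO higher. As alternatives, limma voom with and without quality weights called 0 members, at 44 and 0 of all genes.

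**Figure D1:**
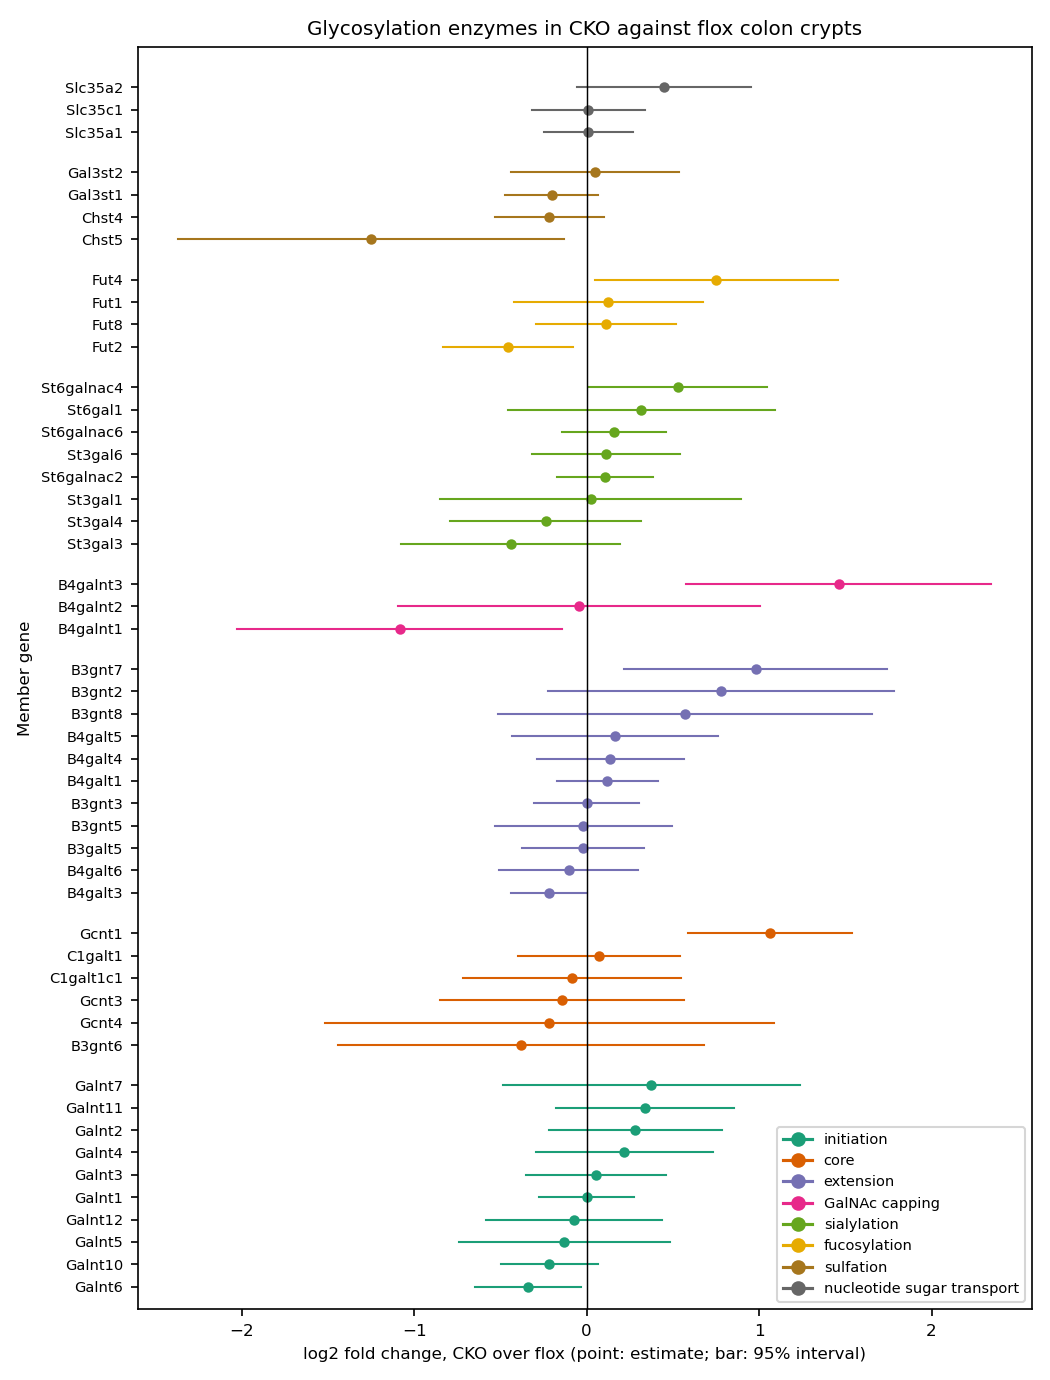
Log2 fold change of CKO over flox (x axis) for each of the 49 tested members (y axis), grouped and coloured by step; points are edgeR estimates and bars their 95% intervals. The largest estimates were those of B4galnt3 (1.46) and Gcnt1 (1.06) on the higher side and Chst5 (-1.25) and B4galnt1 (-1.08) on the lower side.

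The libraries flox 1 and flox 4, which had the high mitochondrial share, also had low values of these enzymes. In 34 of 49 members (69.4%) the lowest flox library was flox 1 or flox 4, against 51.2% of all tested genes, and the median log2 difference of these libraries from the other 3 flox libraries was -0.39 for the members and -0.06 for all genes. Without them the median log2 fold change of the members went from 0.02 to -0.09, with 17 higher and 32 lower, where 53.3% of all genes were higher and the median over all genes was 0.02. In that reduced comparison edgeR called 0 members (0% of 15628 genes), 6 members had an unadjusted p under 0.05, against 6.41% of all genes, and DESeq2 called 1, Gcnt1, against 0.461% of all genes. Libraries of CKO differed too: CKO 5 held the highest or lowest value of all 10 libraries for 19 members (38.8%, against 27.9% of all genes). It was highest for 11, among them B3gnt7, B4galnt3, Gcnt1, Fut4 and St6gal1, and lowest for 8, among them B4galnt1, B3gnt6, Gcnt3, St3gal1 and Fut2.

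**Figure D2:**
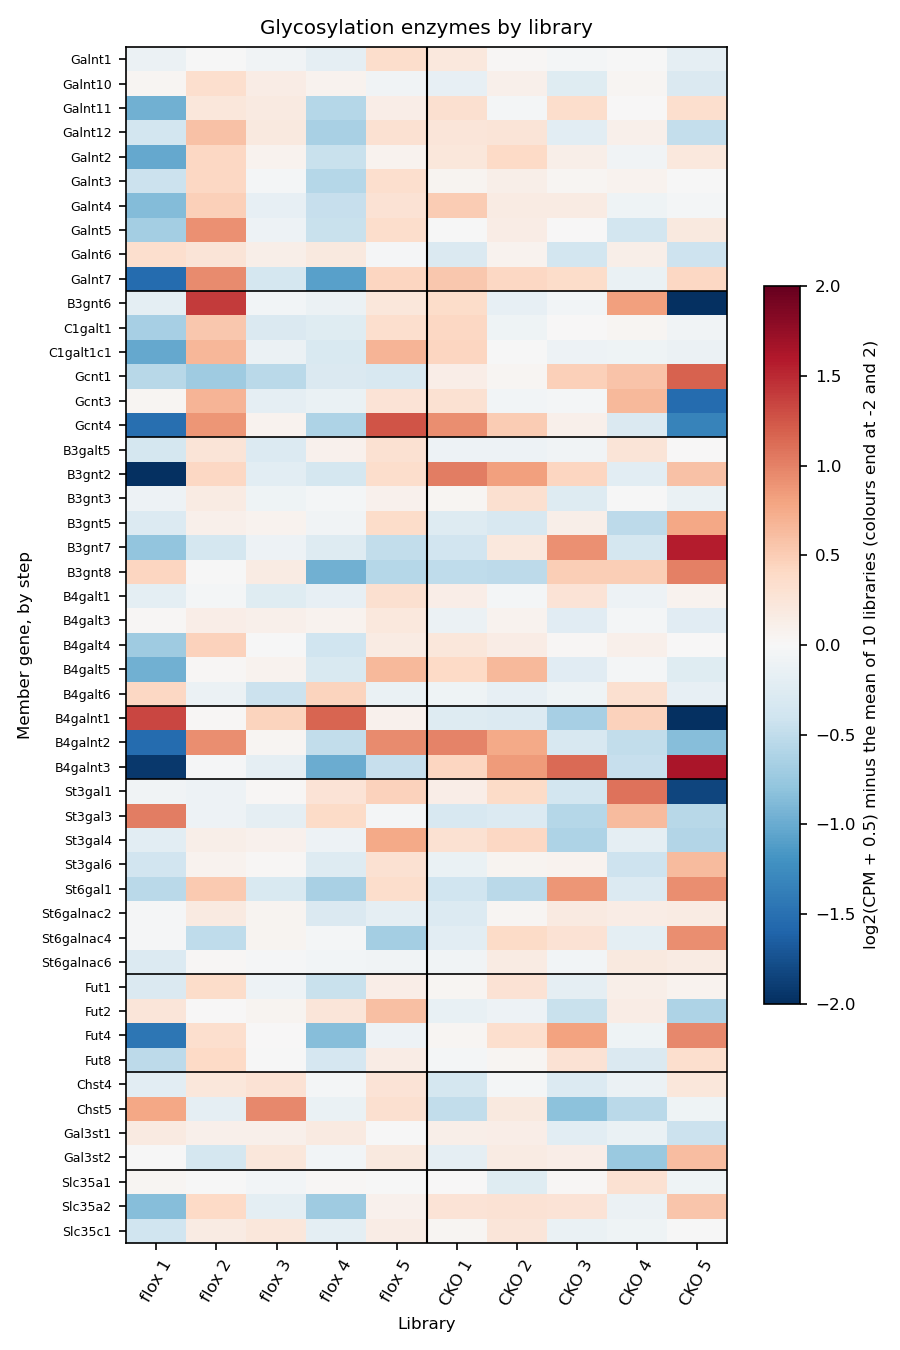
Each row is 1 of the 49 tested members, in the order of the steps, and each column 1 library; the colour gives log2(CPM + 0.5) minus the mean of the gene over the 10 libraries. In flox 1, 20 members were at their lowest and 3 at their highest (46.9%, against 51.2% of all genes), and CKO 5 held 11 at their highest and 8 at their lowest.

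Initiation was spread over many isoenzymes. By FPKM (fragments per transcript length and library size, the authors' values, which allow genes to be compared per length), Galnt12 at 54.8, Galnt10 at 54.1 and Galnt6 at 49.6 were the highest as means over 10 libraries, and Galnt5 at 3.56 the lowest. These 3 made up 19.7% ± 3.28, 22.1% ± 3.41 and 21.7% ± 5.13 of the summed FPKM of the 10 GALNT genes in flox and 19.9% ± 2.43, 19.4% ± 1.30 and 17.3% ± 2.13 in CKO (SD, n = 5 each). GALNT10 prefers substrates that already carry sugars, and GALNT4 acts in the same way on partly glycosylated mucin.

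Of the 10 genes 6 were higher and 4 lower in CKO (median 0.03 on the log2 scale), 0 past the edgeR threshold. Without flox 1 and flox 4, 1 was higher and 9 lower (median -0.14). Galnt6 had the smallest p of the step. It measured 214, 203, 185, 194 and 167 CPM in flox 1 to 5 and 139, 178, 132, 185 and 127 CPM in CKO 1 to 5. CKO 2 and CKO 4 fell within the range of flox, and the other 3 CKO libraries below it. This gave a log2 fold change of -0.34 ± 0.14 (SE), with a CKO to flox ratio of 0.790 (95% interval 0.638 to 0.978) and an edgeR adjusted p of 0.375. Galnt10 stood at 243 ± 26.4 and 209 ± 24.7 CPM (log2 fold change -0.22, edgeR adjusted p = 0.444) and Galnt12 at 105 ± 34.6 and 99.5 ± 21.0 CPM (-0.08, 0.882). The other 7 had log2 fold changes from -0.13 (Galnt5) to 0.37 (Galnt7). Galnt7 was at 24.8 and 34.1 CPM in flox 1 and flox 4 and at 57.2 to 140 CPM in all other libraries.

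Core synthesis held the member that set the groups apart most. GCNT1 makes the core 2 branch by adding N-acetylglucosamine to core 1. Gcnt1 (ENSMUSG00000038843), whose promoter windows are printed above, measured 7.28, 6.50, 7.35, 8.84 and 8.65 CPM in flox 1 to 5 and 12.1, 11.3, 15.5, 16.4 and 25.4 CPM in CKO 1 to 5. The lowest CKO library, CKO 2, lay above the highest flox library, flox 4, and CKO 5 was the highest of all. The group levels were 7.72 ± 0.993 and 16.1 ± 5.63 CPM (SD, n = 5 each). The log2 fold change was 1.06 ± 0.22 (SE), or a ratio of 2.09 (95% interval 1.50 to 2.91). The edgeR adjusted p was 0.179 and that of DESeq2 0.0034. Leaving out 1 library at a time, the log2 fold change ran from 0.84 (without CKO 5) to 1.17, and it was 1.12 without flox 1 and flox 4. A fit that had the mitochondrial share as covariate gave 1.11. The groups stayed apart in each of these leave-one-out comparisons, but this follows from their lack of overlap over all libraries and adds no support. Behind these levels were 92 to 200 counts per flox library and 276 to 718 per CKO library.

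GCNT3, the mucin-type branching enzyme of core 2 and core 4 in the gut, was the more abundant branching enzyme: Gcnt3 had a mean of 28.4 FPKM and Gcnt1 3.03 FPKM over the 10 libraries. Gcnt3 made up 36.8% ± 6.26 of the summed FPKM of the 6 core genes in flox and 32.1% ± 9.33 in CKO, and Gcnt1 2.46% ± 0.841 and 5.42% ± 3.55. In CKO 5 the share of Gcnt1 was 11.6%. Gcnt3 stood at 116 ± 30.2 and 105 ± 46.5 CPM (log2 fold change -0.14, edgeR adjusted p = 0.831), with CKO 5 at 35.1 CPM and the other 9 libraries at 90.9 to 164 CPM.

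B3gnt6 encodes the core 3 synthase, which competes with the core 1 synthase for the first sugar. It stood at 19.7 ± 11.6 and 15.3 ± 8.75 CPM (log2 fold change -0.38, edgeR adjusted p = 0.695), with 2.83 CPM in CKO 5 and 40.3 CPM in flox 2. C1galt1, the core 1 synthase, and C1galt1c1, the chaperone that it needs for folding, had log2 fold changes of 0.07 and -0.08 (edgeR adjusted p = 0.875 and 0.897). C1galt1c1 was at 24.8 ± 11.5 and 23.5 ± 4.24 CPM. Gcnt4, a further core 2 branching enzyme, was low at 3.55 ± 2.72 and 3.11 ± 1.84 CPM (log2 fold change -0.22, edgeR adjusted p = 0.866). Its counts spread widely, from 8 to 166 per flox library and from 22 to 128 per CKO library. Of the 6 core genes 2 were higher and 4 lower (median -0.11, and -0.34 without flox 1 and flox 4).

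B3gnt3 and B3gnt7, which add N-acetylglucosamine to a growing chain, had the highest FPKM of the extension genes over the 10 libraries (means 117 and 116). The share of B3gnt7 in the summed FPKM of the step was 19.3% ± 3.31 in flox, close to the 18.8% ± 1.93 of B3galt5, and 29.9% ± 13.3 in CKO. For B3gnt3 the share was 30.9% ± 2.18 in flox against 26.2% ± 6.24 in CKO. B3gnt3 had 309 ± 25.3 CPM in flox against 309 ± 48.7 CPM in CKO, and the 95% interval of its ratio ran from 0.811 to 1.23. B3gnt7 (ENSMUSG00000079445) measured 120, 162, 194, 174 and 148 CPM in flox 1 to 5 and 160, 241, 391, 163 and 618 CPM in CKO 1 to 5. CKO 3 and CKO 5 were far above every flox library, while CKO 1 and CKO 4 lay within the flox range. Its log2 fold change was 0.98 ± 0.35 (SE), a ratio of 1.97 (95% interval 1.16 to 3.35), with an edgeR adjusted p of 0.365. It was 0.58 without CKO 5.

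The 11 extension genes had a median log2 fold change of 0.12 (6 higher, 5 lower) and of -0.04 without flox 1 and flox 4. B4galt3, a galactosyltransferase, stood at 39.0 ± 1.97 and 33.5 ± 3.04 CPM (log2 fold change -0.22, edgeR adjusted p = 0.386). All CKO libraries lay below the flox libraries for it once flox 1 and flox 4 were left out, where the groups of 4.61% of all genes did not overlap. B4galt3 shares 14.5% of its exon bases with Ppox on the opposite strand, which stood at 29.3 and 21.6 CPM, and the strand setting of the counting is not given in the sources used here, so its reads are uncertain. B3gnt2, which makes polylactosamine, was at 2.22 CPM in flox 1 and 14.8 to 39.3 CPM in the other 9 libraries (log2 fold change 0.78, edgeR adjusted p = 0.443, and 0.39 without flox 1 and flox 4). It shares 58.6% of its exon bases on the same strand with Gm28048, which stood at 20.8 and 19.8 CPM in flox and CKO, so its reads are uncertain. B3galt5, B4galt1, B4galt4, B4galt5, B4galt6 and B3gnt5 had log2 fold changes from -0.10 to 0.16. B3gnt8 was at 1.10 and 1.63 CPM (0.57, edgeR adjusted p = 0.569). It shares 18.1% of its exon bases with Bckdha on the opposite strand, which had 57.5 CPM in flox against 44.0 CPM in CKO, so its reads are uncertain.

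**Figure D3:**
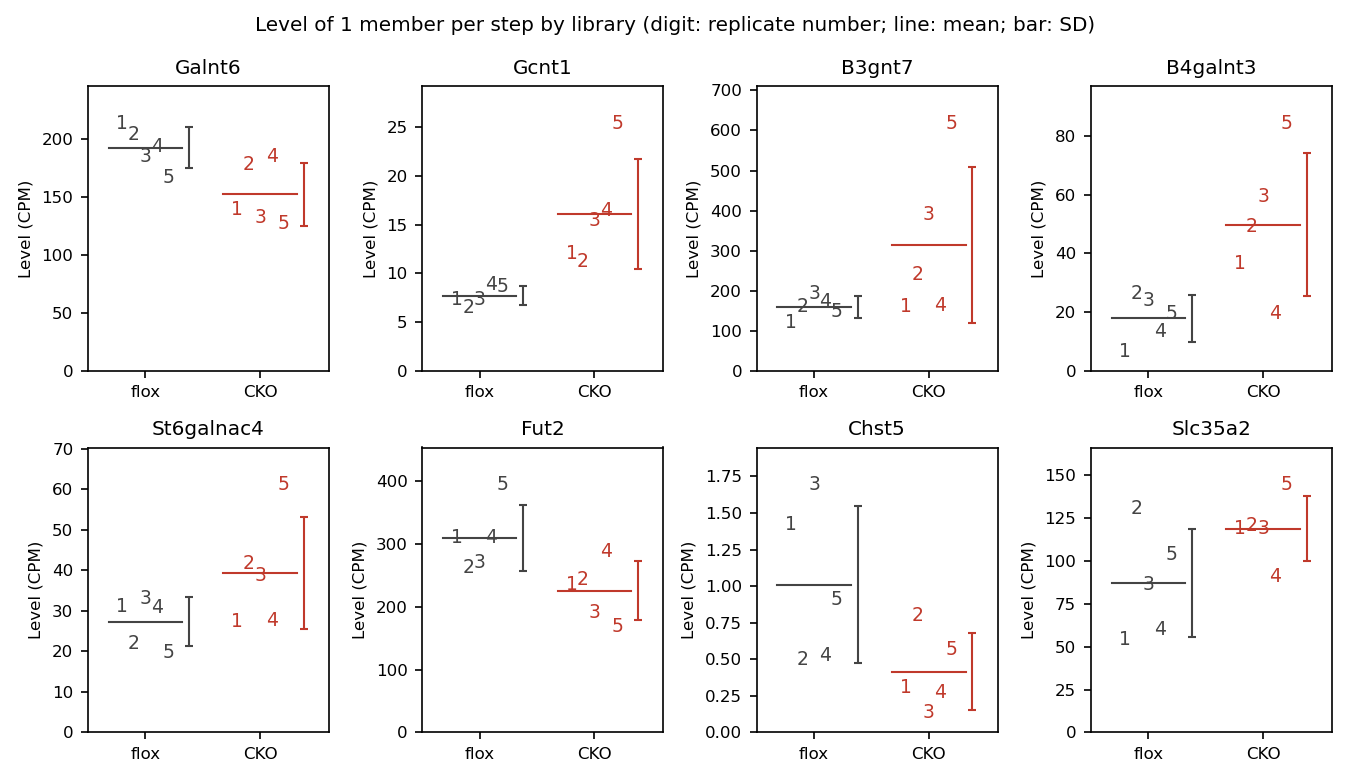
Level in CPM (y axis, from 0) of the member with the smallest p in each step, by group (x axis); each digit is 1 library and its replicate number, lines are means and bars SDs (n = 5). In Gcnt1 the groups do not overlap, while in the other 7 genes the groups overlap.

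The 3 enzymes that add N-acetylgalactosamine to chain ends had estimates in opposite directions. B4GALNT3 caps N-acetylglucosamine to form the LacdiNAc unit. B4galnt3 (ENSMUSG00000041372) measured 6.72, 26.5, 23.8, 13.3 and 19.6 CPM in flox 1 to 5 and 36.5, 49.0, 59.4, 19.5 and 84.3 CPM in CKO 1 to 5. With the exception of CKO 4, every CKO library was above the highest flox library. The log2 fold change was 1.46 ± 0.41 (SE), or a ratio of 2.75 (95% interval 1.49 to 5.09). The edgeR adjusted p was 0.331 and that of DESeq2 0.0333, a call that was lost without flox 1 and flox 4 (DESeq2 adjusted p = 0.185, edgeR log2 fold change 1.11). A fit that had the mitochondrial share as covariate gave 0.94.

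B4galnt1 (ENSMUSG00000006731), whose enzyme makes complex gangliosides, was at 614, 248, 333, 547 and 258 CPM in flox 1 to 5 and at 204, 202, 154, 336 and 47.9 CPM in CKO 1 to 5. The highest values were in flox 1 and flox 4 and the lowest in CKO 5, and CKO 4 overlapped flox. Its log2 fold change of -1.08 ± 0.43 (SE) had an edgeR adjusted p of 0.374, and was -0.56 without flox 1 and flox 4. It shares 20.7% of its exon bases with Slc26a10 on the opposite strand, whose own level was 12.1 CPM in flox against 3.81 CPM in CKO. These reads too are uncertain.

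B4GALNT2 makes the Sda antigen, a sialylated cap of colonic mucin. B4galnt2 stood at 147 ± 88.5 and 142 ± 80.8 CPM (log2 fold change -0.04, 95% interval of the ratio 0.468 to 2.01, edgeR adjusted p = 0.969). It ranged from 42.3 CPM in flox 1 to 248 CPM in CKO 1, so its spread within each group exceeded any difference between them. By FPKM, B4galnt1, B4galnt2 and B4galnt3 took 64.2% ± 21.5, 33.9% ± 20.7 and 1.85% ± 0.939 of the summed value of the step in flox and 44.3% ± 16.9, 45.9% ± 12.6 and 9.80% ± 9.77 in CKO. B4galnt3 took 26.3% in CKO 5 and 2.54% in CKO 4.

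**Figure D4:**
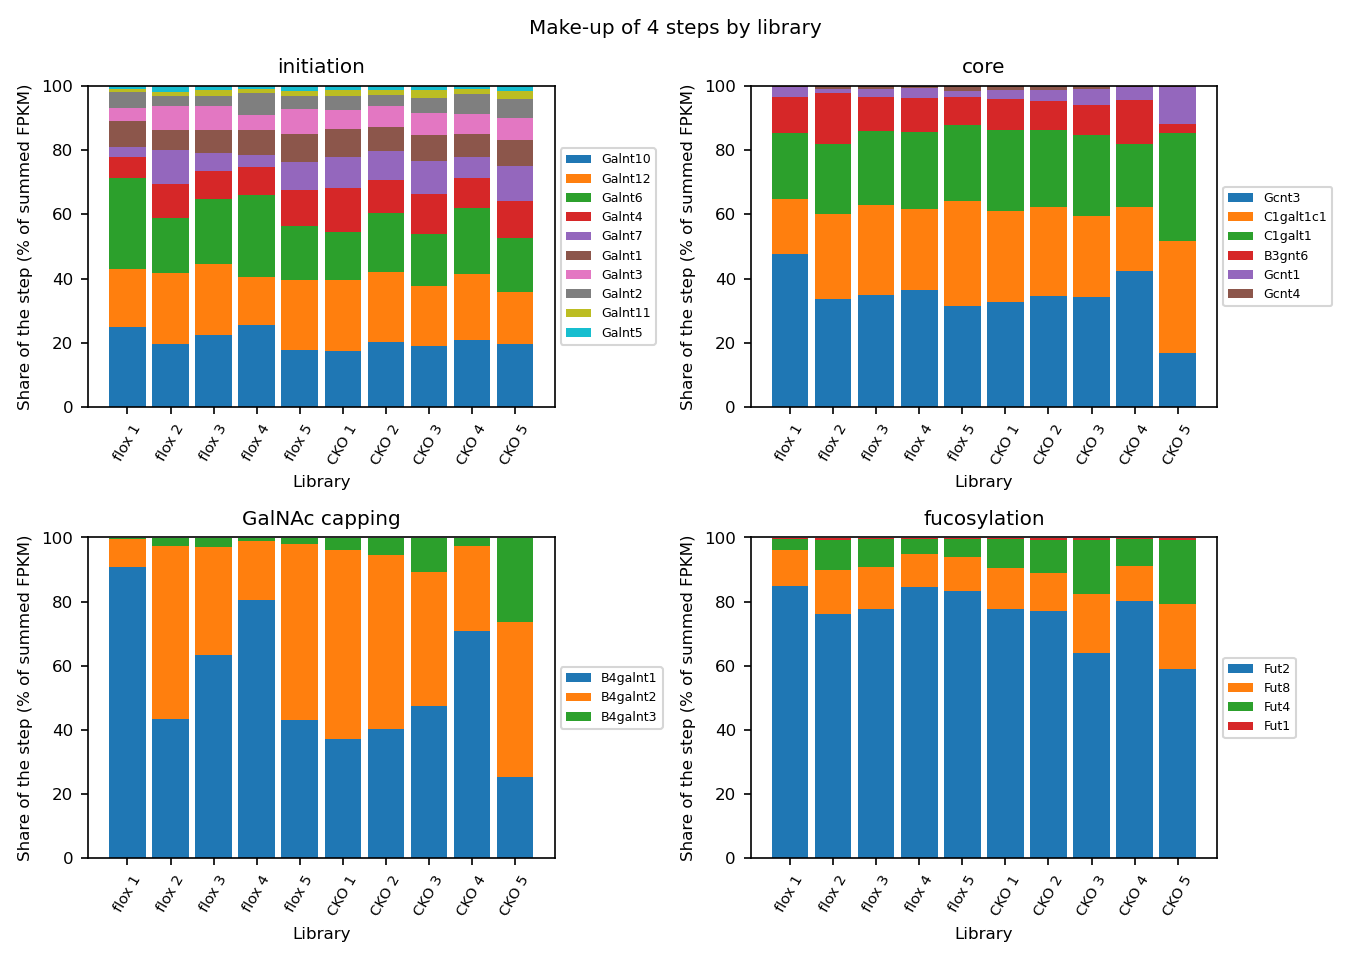
Share of the summed FPKM (y axis, percent) taken by each gene in initiation, core synthesis, N-acetylgalactosamine capping and fucosylation, by library (x axis). Galnt10, Galnt12 and Galnt6 led initiation in the group means, the share of B4galnt1 was highest in flox 1 (90.7%), and Gcnt1 (11.6%) and B4galnt3 (26.3%) took their largest shares in CKO 5.

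Sialylation was led by St6galnac6 (mean 514 FPKM) and St3gal4 (405 FPKM), the 2 highest of all 51 members. ST3GAL4 sialylates terminal galactose, and ST6GALNAC6 adds a sialic acid to an already sialylated chain. St6galnac6 stood at 714 ± 52.4 and 798 ± 69.5 CPM (log2 fold change 0.16, edgeR adjusted p = 0.567) and St3gal4 at 451 ± 132 and 383 ± 127 CPM (-0.24, 0.642). Together these genes took 43.7% ± 4.09 and 37.0% ± 7.25 of the summed FPKM of the step in flox, and 49.0% ± 4.58 and 33.8% ± 7.89 in CKO.

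Of 8 tested sialyltransferases 6 were higher and 2 lower (median 0.11, and 0.03 without flox 1 and flox 4), 0 past the edgeR threshold. St6galnac4, which sialylates the N-acetylgalactosamine of sialylated core 1, had the smallest p. It measured 31.1, 22.0, 33.0, 30.8 and 19.6 CPM in flox 1 to 5 and 27.3, 41.7, 38.8, 27.7 and 61.2 CPM in CKO 1 to 5. CKO 1 and CKO 4 lay within the range of flox and the other 3 CKO libraries above it. The log2 fold change was 0.53 ± 0.24 (SE; edgeR adjusted p = 0.381), and 0.32 without CKO 5. St3gal3 was at 181 ± 71.8 and 133 ± 54.2 CPM (-0.44, edgeR adjusted p = 0.474), and its log2 fold change was -0.03 without flox 1 and flox 4. St3gal1, St3gal6 and St6galnac2 had log2 fold changes of 0.02, 0.11 and 0.11 (edgeR adjusted p = 0.980, 0.777 and 0.680). The reads of St3gal6 are uncertain, since it shares 26.0% of its exon bases with Dcbld2 on the opposite strand (4.89 and 4.33 CPM), and so are those of St3gal4, which shares 14.1% with 4930581F22Rik (9.56 and 7.29 CPM). St3gal1 was at 7.50 CPM in CKO 5 and 60.2 CPM in CKO 4. St6gal1, whose log2 fold change was 0.32 (edgeR adjusted p = 0.655), was at 28.1 to 42.5 CPM in flox 2, flox 5, CKO 3 and CKO 5 and lower in the other 6 libraries, down to 13.9 CPM in flox 4.

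St6galnac1 and St6galnac3 did not pass the filter. St6galnac1, the enzyme that makes sialyl-Tn, had 0, 4, 6, 0 and 0 counts in flox 1 to 5, and the CKO libraries held 3, 7, 14, 1 and 5. St6galnac3 had 0, 0, 8, 1 and 2 counts in flox and 3, 0, 2, 3 and 0 in CKO. An alignment of the St6galnac1 transcript to those of other genes found Gm11735, 98.0% identical over 1581 bases, which had 0 to 21 counts per library, so reads that match both may have been split or set aside. With counts this low no comparison of either gene was possible.

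Fucosylation was dominated by Fut2, which makes the H antigen of the gut and took 81.3% ± 4.15 of the summed FPKM of the 4 genes in flox and 71.6% ± 9.41 in CKO. Fut2 (ENSMUSG00000055978) measured 310, 263, 271, 310 and 394 CPM in flox 1 to 5 and 236, 244, 191, 288 and 169 CPM in CKO 1 to 5. Of the CKO libraries, CKO 4 alone reached the range of flox. For Fut2 the log2 fold change was -0.46 ± 0.17 (SE), a ratio of 0.729 (95% interval 0.561 to 0.947), with an edgeR adjusted p of 0.372, and was -0.45 without flox 1 and flox 4; on log2(FPKM + 1) it was 0.04, where the median of all genes was 0.30.

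FUT4 adds fucose within the chain and forms Lewis x. Fut4 was at 18.2, 63.9, 50.5, 27.7 and 47.1 CPM in flox 1 to 5 and 51.7, 63.6, 88.5, 47.2 and 98.8 CPM in CKO 1 to 5. The values of flox 1 and flox 4 were the lowest, and CKO 3 and CKO 5 were above every flox library. Its log2 fold change of 0.75 ± 0.32 (SE; edgeR adjusted p = 0.379) was 0.39 without flox 1 and flox 4. Fut8 stood at 44.4 ± 11.3 and 47.9 ± 8.27 CPM (0.11, edgeR adjusted p = 0.770), and Fut1, a low-level relative of Fut2, at 1.88 and 2.07 CPM (0.13, 0.809).

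Sulfation rested on Chst4 (mean 48.6 FPKM), a sulfotransferase of N-acetylglucosamine, and Gal3st1 (39.5 FPKM), which sulfates galactose of glycolipids. Chst4 had 56.7 to 80.7 CPM in flox (median 76.7) and 51.6 to 77.3 CPM in CKO (median 60.8; log2 fold change -0.22, edgeR adjusted p = 0.479), and Gal3st1 at 61.0 ± 3.24 and 53.0 ± 8.47 CPM (-0.20, 0.450). Chst5, a relative of Chst4, was near the limit of detection at 1.42, 0.497, 1.69, 0.529 and 0.908 CPM in flox 1 to 5 and 0.306, 0.797, 0.138, 0.274 and 0.566 CPM in CKO 1 to 5. Its 4 to 38 counts per library overlapped between the groups. The log2 fold change was -1.25 ± 0.51 (SE; edgeR adjusted p = 0.374).

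Gal3st2, which sulfates galactose on mucin-type chains, was at 23.9 and 24.7 CPM (log2 fold change 0.05, edgeR adjusted p = 0.924). Its transcript was 99.6% identical over 2576 bases to that of Gal3st2b and 95.1% over 2416 bases to that of Gal3st2c, which stood at 20.0 and 18.5 CPM and at 8.88 and 13.2 CPM, so the split of reads among these genes is uncertain. Of the 4 sulfation genes 1 was higher and 3 lower (median -0.21, and -0.25 without flox 1 and flox 4).

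Among the carriers of sugar donors, Slc35c1 (GDP-fucose, mean 117 FPKM) stood at 265 ± 48.0 and 267 ± 28.0 CPM and Slc35a1 (CMP-sialic acid) at 119 ± 3.33 and 119 ± 17.5 CPM. The 95% intervals of their ratios ran from 0.801 to 1.27 and from 0.844 to 1.20. Slc35a2 (UDP-galactose) measured 54.5, 131, 86.2, 59.8 and 104 CPM in flox 1 to 5 and 119, 121, 119, 90.9 and 145 CPM in CKO 1 to 5. Its lowest values were in flox 1 and flox 4 and the groups overlapped. The log2 fold change was 0.45 ± 0.23 (SE; edgeR adjusted p = 0.404), and 0.16 without flox 1 and flox 4.

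**Figure D5:**
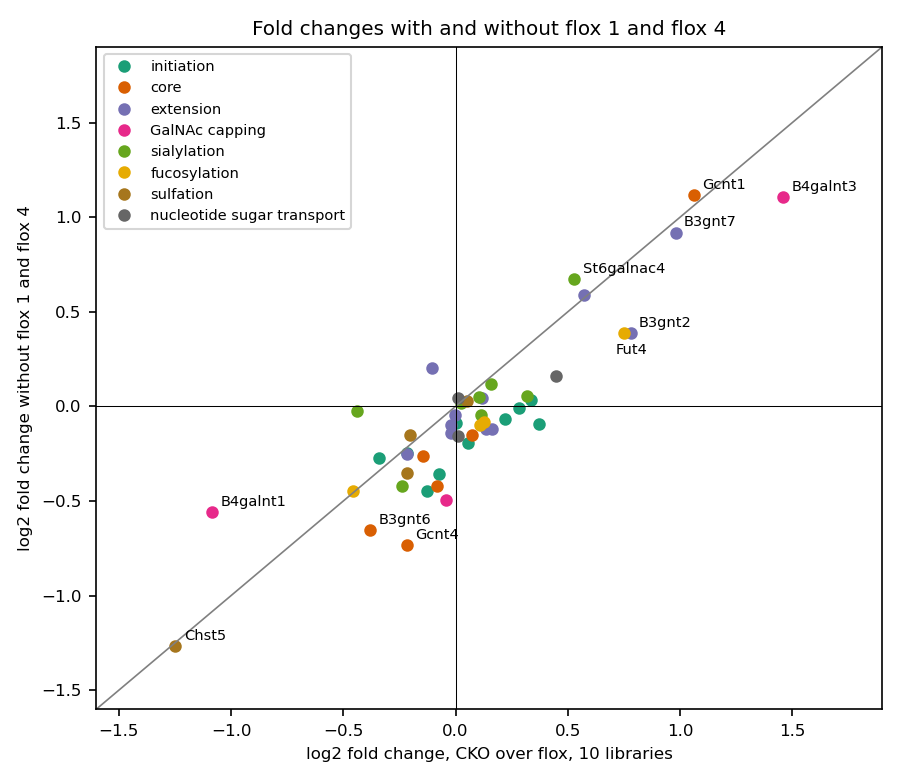
Log2 fold change of CKO over flox over all 10 libraries (x axis) and without flox 1 and flox 4 (y axis), 1 point per tested member, coloured by step; the grey line marks equal values. Gcnt1 (1.06 and 1.12) and B3gnt7 (0.98 and 0.92) lie near the line, B4galnt1 moved from -1.08 to -0.56, and 32 of 49 points lie below 0 on the y axis.

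Other genes of the pathway that are not among the 51 were read from 3 further lists. The list for the supply of sugar and sulfate donors had 28 genes, both enzymes that make donors and carriers such as Slc26a2 and Slc35a3. Of these genes 10 had a positive and 18 a negative log2 fold change. The median was -0.15, and -0.12 without flox 1 and flox 4, with 0 called by edgeR and 0 by DESeq2. An unadjusted edgeR p under 0.05 was found for 4 higher and 6 lower genes, against 5.05% and 7.91% of all tested genes. Gfpt2, a low-level isoenzyme of the first step of hexosamine synthesis, was at 0.963 ± 0.560 and 2.85 ± 1.56 CPM (log2 fold change 1.53, edgeR adjusted p = 0.355), and Galk1, galactokinase, at 34.3 ± 11.9 and 21.1 ± 3.65 CPM (-0.70, 0.359). The value for Galk1 was -0.36 without flox 1 and flox 4.

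Of 36 other glycosyltransferases and sulfotransferases on the list 35 matched an ID and 17 passed the filter, 9 higher and 8 lower (median 0.03, and -0.01 without flox 1 and flox 4), with 0 called by edgeR and 1 by DESeq2. That gene was Fut9, which forms Lewis x like Fut4. Fut9 (ENSMUSG00000055373) measured 0.712, 2.59, 2.32, 0.302 and 1.04 CPM in flox 1 to 5 and 3.19, 4.05, 10.9, 4.06 and 13.2 CPM in CKO 1 to 5. The groups of Fut9 did not overlap, where 2.18% of all genes did not, and 0.922% with CKO higher. In these further lists the groups also did not overlap for Nanp and B3galt2 (CKO higher) and for Galk2 and Muc2 (CKO lower). Fut9 was low, with 4 to 73 counts per flox library and 73 to 373 per CKO library. For Fut9 CKO 3 and CKO 5 were the highest, as they were for Fut4. The log2 fold change of Fut9 was 2.29 ± 0.56 (SE; edgeR adjusted p = 0.283, DESeq2 adjusted p = 0.00686), and 1.85 without flox 1 and flox 4 (DESeq2 adjusted p = 0.0412). Abo, the blood group transferase, stood at 6.77 ± 0.914 and 4.81 ± 0.708 CPM (-0.50, edgeR adjusted p = 0.365).

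The list of mucins, which carry the glycans, and of other mucus proteins had 9 tested genes, of which 9 were lower. Muc2, Fcgbp, Clca1, Zg16 and Tff3 are also among the goblet cell markers given above, so these counts share genes. Without flox 1 and flox 4, Muc3 turned to 0.06. The median of the 9 tested genes was -0.64, and -0.29 without flox 1 and flox 4, with 0 called by edgeR and 1, Muc2, by DESeq2. Muc2 had a log2 fold change of -0.73 ± 0.28 (SE; edgeR adjusted p = 0.372, DESeq2 adjusted p = 0.0434), and of -0.89 without flox 1 and flox 4 (DESeq2 adjusted p = 0.0213). Clca1 and Fcgbp, secreted proteins of the mucus gel, also moved further from 0 without these libraries, from -0.84 to -1.21 and from -0.72 to -0.94 (edgeR adjusted p over the 10 libraries = 0.424 and 0.386). Tff3, a small mucus peptide, and Zg16, another mucus protein, went the other way. Tff3 moved from -0.88 ± 0.34 (SE; edgeR adjusted p = 0.372) to -0.17 without flox 1 and flox 4. Zg16 moved from -0.64 ± 0.28 (SE; edgeR adjusted p = 0.381) to -0.23 without them. The other tested mucins were closer to 0 than Muc2: Muc1 at -0.34, Muc20 at -0.34, Muc13 at -0.09 and Muc3 at -0.02. The median of the enzymes and that of this mixed list stood at 0.02 and -0.64 over the 10 libraries. Without flox 1 and flox 4 these medians were -0.09 and -0.29, and their difference was not tested.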

How the data were processed

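Per the labels' protocols, total RNA from mouse colon crypts was made into mRNA-enriched TruSeq libraries. The submitters' processing notes name fastp and HISAT2. For the build, annotation, counting tool and strand setting, nothing is stated (not given in the sources used here). In the deposited count table each value is a whole number of reads per Ensembl gene ID, and the deposited FPKM table holds the authors' values per gene length and library total, with lengths and totals not stated. FPKM values were used to compare genes per length, as shares within a library and as means over the 10 libraries. The summed FPKM of the members ran from 1244 (flox 1) to 3518 (flox 2), so such means weight libraries unequally.

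Symbols came from GENCODE M21 (26095 of 33632 IDs). The members and lists were chosen with earlier results of these data known. Genes were filtered with filterByExpr (14963 left), scaled by trimmed mean of M values, and compared by edgeR's quasi-likelihood test (edgeR 4.0.16, R 4.3.3, group as the only term) with Benjamini-Hochberg adjustment over all tested genes and a threshold of 0.05. DESeq2 1.42.0 and limma 3.58.1 were alternatives, among other scalings, filters, a replicate block, the mitochondrial share as a covariate and left-out libraries. The standard error is the log2 fold change over the square root of F. The code of the test was run on simulated counts with the same dispersion for every gene, which does not measure its power in these libraries. Members named per step were the 2 highest by FPKM, the 2 with the smallest p and any whose groups did not overlap, and further members were named after their values were seen. In other lists, genes past the threshold or the 2 with the smallest p were named, and further genes were named after their values were seen. Near-identical transcripts were sought with blastn (at least 95% over 200 bases), and exon overlaps were read from GENCODE M21, whose build may differ from that of the files. Members not flagged above also share exon bases on the opposite strand, among them B4galnt2 (15.3%, Gm11534), B3gnt7 (12.6%, Gm28626) and Galnt6 (11.4%, Galnt6os). The Galnt2 transcript was 100% identical over 3856 bases to that of a gene absent from the deposited counts. The reads of these members are uncertain too.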

Additional observations from a re-analysis of the deposited data

Results flagged for a closer look

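Values of 4 named members stood apart from the other 4 libraries of their group by a gap larger than Dixon's 95% critical value. C1galt1c1 was at 31.0 CPM in CKO 1 and at 21.0 to 22.7 CPM in the other CKO libraries. B3gnt6 was at 40.3 CPM in flox 2 and at 12.9 to 17.5 CPM in the other flox libraries. St3gal4 was at 677 CPM in flox 5, against 344 to 435 CPM, and St3gal3 at 228 CPM in CKO 4, against 98.9 to 123 CPM. The 26 named members gave 52 groups to examine, and chance puts about 1 in 20 groups past this value.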

How the results depend on the processing

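Under the alternatives that kept 10 libraries or left out flox 1 and flox 4 together, 340 of 389 log2 fold changes of named members kept their sign. Other scalings shift all genes: the median over all genes, 0.0010 in the reported fit, was 0.36 by total counts, 0.30 on log2(FPKM + 1) and 0.41 on log2(FPKM + 0.1), and the median of the members was 0.34, 0.45 and 0.47. Signs turned there, in that order, for Galnt12 (0.16, 0.39, 0.40), Galnt10 (0.12, 0.20, 0.20), Galnt6 (0.0223, 0.0739, 0.0762), Gcnt3 (0.11, 0.15, 0.16), C1galt1c1 (0.14, 0.45, 0.49), B3gnt3 (0.34, 0.42, 0.42), B4galt3 (0.13, 0.23, 0.25), B4galnt2 (0.13, 0.46, 0.48), St3gal4 (0.0506, 0.36, 0.36), Chst4 (0.11, 0.26, 0.27) and Gal3st1 (0.17, 0.21, 0.22), for Fut2 by FPKM alone (0.0402 and 0.0414), and for St3gal3 by total counts alone (0.0022). B3gnt3 also turned with upper quartile scaling (0.0278) and no filter (0.0196), B4galnt2 with limma voom (0.0779), and C1galt1c1 and Slc35c1 with quality weights (0.0030 and -0.13). Fut8 and Slc35c1 turned with the mitochondrial share as a covariate (-0.15 and -0.17), without flox 1 and flox 4 (-0.10 and -0.15), and in DESeq2 without them (-0.10 and -0.16). The cause was not tested.

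DESeq2 called 2 members and 178 genes, and without flox 1 and flox 4 (an alternative added after seeing the data) 1 and 69. Quality weights called 44 genes, no filter 3 and the covariate 1, with 0 members each. Members whose groups did not overlap numbered 2 without flox 1 and flox 4, by CPM and by DESeq2. Leaving out 1 library at a time, edgeR called 0 members and 0 to 2 genes, 1 to 6 members did not overlap (6 without CKO 4: Gcnt1, B3gnt2 and B4galnt3 higher, B4galnt1, St3gal3 and Fut2 lower, where 5.60% of all genes did not), and the members' median ran from -0.02 to 0.12. Signs turned in some of these for B3gnt3 (-0.0914 to 0.0613), B3gnt6 (-0.68 to 0.0592), B4galnt2 (-0.34 to 0.21), C1galt1c1 (-0.27 to 0.11), Galnt12 (-0.21 to 0.0844), Gcnt3 (-0.36 to 0.0788), Slc35a1 (-0.0741 to 0.0706) and Slc35c1 (-0.0759 to 0.0878).

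With the replicate block edgeR called 0 members, the members' median was 0.0206, and C1galt1c1 (0.0206) and Slc35a1 (-0.0007) turned. Same-numbered libraries had correlations of deviations from -0.35 to 0.47, so the numbers are not shown to pair the libraries. Low counts limited what could be read for St6galnac1, St6galnac3 and Chst5, and why the counts were low was not tested.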
